A study of Mus musculus with 12 samples.

Results

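The aminoacyl-tRNA synthesis genes of BV2 microglia were taken as every gene whose pathway annotation in the deposited count table names the KEGG map of aminoacyl-tRNA biosynthesis (mmu00970). The rule used no measured value. It found 44 of the 21834 genes in the table, and all 44 passed the filter on low counts, as did 11626 genes in all. By the compartment in which the product works, 19 members are cytosolic synthetases or synthetase subunits, 17 are mitochondrial synthetases, 2 (Gars and Kars) serve both compartments from 1 gene, 4 act on tRNA already charged inside mitochondria, and 2 make selenocysteine on its tRNA.

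BV2 is an immortalized mouse microglial line. All 4 groups were lentivirally transduced, puromycin-selected stable lines that express either a control shRNA (shCtrl) or 1 shRNA against Anxa2 (shAnxa2) from the pLKO.1 vector, and a knockdown by a single shRNA has no second shRNA as a check. Each line was left untreated (CTRL) or exposed to oxygen-glucose deprivation and reoxygenation (OGDR, written OGD/R here), which models ischemia followed by reperfusion in a dish, with 3 libraries in each group and 12 in all. By the sample labels deprivation lasted 4 h and was followed by reoxygenation for 12 h, whereas the methods of the study state a longer reoxygenation for BV2 cells. Groups were taken from the sample titles, because a second label names every OGDR sample an Anxa2 knockdown and every CTRL sample wild type.

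Aminoacyl-tRNA synthetases join each amino acid to its tRNA, the step that fixes the genetic code before the ribosome reads a message. Most amino acids have 1 enzyme for the cytosol and a second, encoded by another nuclear gene, that is imported into mitochondria to serve the translation of the respiratory chain subunits encoded there. When uncharged tRNA builds up, the kinase GCN2 (Eif2ak4) favours translation of the transcription factor ATF4, and several cytosolic synthetase genes are known ATF4 targets.

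Library totals ranged from 19521877 to 27288843 counts. Anxa2 had a log2 fold change of −2.09 in shAnxa2 against shCtrl cells without OGD/R and −3.83 after it. Each shAnxa2 library lay below each shCtrl library, as the titles state. That is a check of the line of each library, and the treatment in the titles had no such check. All 12 microglia or macrophage markers examined averaged over 1 CPM (counts scaled to a common library size, with edgeR's TMM factors) and summed to between 1816 and 2256 CPM per library, while neuronal markers summed to 1.33 CPM or less with Snap25 and Syt1 at 0, astrocytic markers to 0.382 CPM or less with Aqp4 at 0, and oligodendrocyte markers to between 4.08 and 6.71 CPM with Mog at 0. Some microglia or macrophage markers were low, with group means of 1.73 to 2.53 CPM for P2ry12, 3.05 to 5.85 for Cx3cr1 and 2.93 to 5.75 for Aif1. The oligodendrocyte marker Mbp had 3.25 to 5.09 CPM. Most of the microglia or macrophage sum came from other markers, such as Csf1r (398 to 584 CPM). In bulk RNA a change in the make-up of the culture and a change in RNA per cell cannot be told apart. No library stood apart in the members except 1 shAnxa2-OGDR library in Lars2, so counts and medians of the mitochondrial class are also given without Lars2 where they differ.

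Cytosolic synthetase mRNAs were far more abundant than mitochondrial ones. Per kilobase of exon, the mean level over the 12 libraries had a median of 51.1 CPM per kilobase in the cytosolic class (2.48 to 113) and of 5.89 in the mitochondrial class (1.94 to 30.2, the highest being Lars2). Without Lars2 the mitochondrial median was 5.82 and the highest was Iars2 at 23.05 CPM per kilobase. The level of Lars2 was 3.65 to 6.41 in the other groups and 106 ± 173 (SD, n = 3) in shAnxa2-OGDR. By this measure the highest member was Gars, the glycyl-tRNA synthetase of both compartments, at 120.9 CPM per kilobase, followed by Nars (asparagine) at 113 and Rars (arginine) at 108. Their order changed between groups, since Rars led in shCtrl-CTRL (119 ± 1.30 against 107 ± 0.712 for Gars; SD, n = 3) and Gars led in shCtrl-OGDR and shAnxa2-CTRL. The lowest cytosolic members were Tarsl2, a threonyl-tRNA synthetase paralog, at 2.48 and Cars (cysteine) at 15.7 CPM per kilobase. For the 17 pairs examined of a cytosolic and a mitochondrial enzyme for the same amino acid, in which Eprs and Fars2 each appear in more than 1 pair, the median ratio of levels per kilobase ran from 2.49 for isoleucine (Iars against Iars2) to 32.5 for asparagine (Nars against Nars2). Ranks and ratios depend on the length used, the union of all annotated exons. It was 3119 bases for Gars, 9282 for Aars and 18102 for Eprs, and it can exceed the length of the mRNA present.

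**Figure D1:**
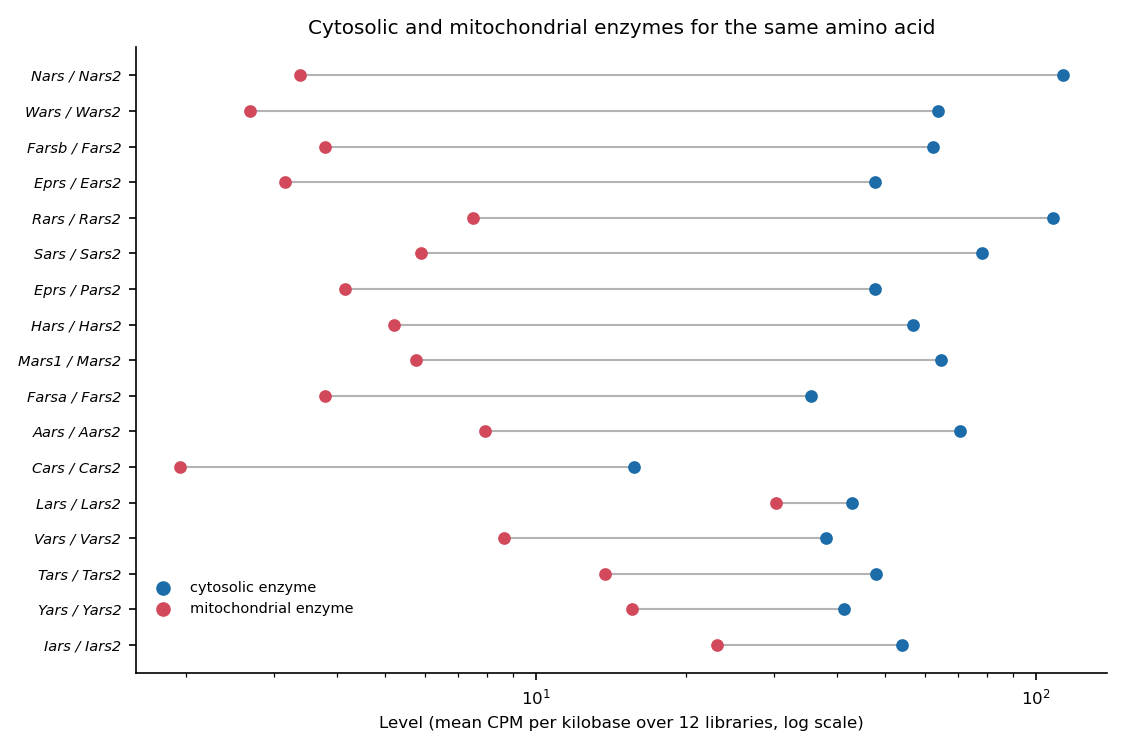
Mean level over the 12 libraries (CPM per kilobase of exon, log scale) of the cytosolic (blue) and the mitochondrial (red) enzyme of each pair, ordered by the median ratio over libraries. Each blue point lies to the right of its red point, with ratios from 2.49 (Iars and Iars2) to 32.5 (Nars and Nars2). The mean of Lars2 includes the library with 66525 counts.

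The first comparison asked how OGD/R changed these genes in shCtrl cells. Of the 44 members, 19 rose and 8 fell (called at an adjusted p under 0.05 by the quasi-likelihood test of edgeR, Benjamini-Hochberg adjustment over all genes tested). Of all genes tested 63.4% were called, 32.4% higher and 31% lower. The median log2 fold change of the members was 0.06, against 0.00 over all genes. In the cytosolic class 8 of 19 rose and 2 fell, led by Cars (0.55, SE 0.0455), Vars (valine; 0.53, SE 0.0719) and Sars (serine; 0.48, SE 0.0473), with Mars1, Nars, Dars, Lars and Yars between 0.17 and 0.30. The 2 lower cytosolic members were Farsa, the catalytic subunit of the phenylalanine enzyme (−0.43, SE 0.0475), and Hars (histidine; −0.20, SE 0.0519). In the mitochondrial class 8 of 17 rose and 3 fell. Vars2 (0.66), Iars2 (0.65) and Fars2 (0.63) rose most, and Yars2 (−0.74), Mars2 (−0.72) and Cars2 (−0.66) fell. Nars2, Wars2, Ears2 and Tars2, the enzymes for asparagine, tryptophan, glutamate and threonine, rose by 0.18 to 0.33. The call of Ears2 (0.27) was lost without shCtrl-CTRL 3 (0.20, adjusted p = 0.109, edgeR) or shCtrl-OGDR 2 (0.24, adjusted p = 0.0698), and that of Tars2 (0.18) without shCtrl-CTRL 3 (0.14, adjusted p = 0.0651) or shCtrl-OGDR 1 (0.14, adjusted p = 0.0536).

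Changes were larger in the mitochondrial class by their medians. The median size of the log2 fold change in shCtrl cells, whatever its sign, was 0.18 over cytosolic members and 0.33 over mitochondrial members (0.33 without Lars2), against 0.30 over all genes tested. The difference between the classes was not tested, since genes are not replicates. Summed over the class, cytosolic synthetases took 5381 ± 85.7 CPM (SD, n = 3) in shCtrl-CTRL and 5829.8 ± 144 CPM in shCtrl-OGDR, and mitochondrial synthetases other than Lars2 took 677 ± 11.1 and 801.5 ± 16.96 CPM. In shAnxa2 cells the cytosolic sum was 5452 ± 21.1 CPM without OGD/R and 5343 ± 97.3 CPM after it, and the mitochondrial sum other than Lars2 was 799 ± 11.1 and 759 ± 10.9 CPM. Neither sum overlapped between the groups of shCtrl cells, where both were higher with OGD/R. In shAnxa2 cells the mitochondrial sum was lower with OGD/R in every library (at most 772 against at least 786 CPM), and the ranges of the cytosolic sum overlapped (5275 to 5454 against 5429 to 5469 CPM). The mitochondrial sums lean on Iars2, which went from 163 ± 6.99 to 255 ± 2.78 CPM in shCtrl cells and from 235 ± 6.17 to 166 ± 2.99 CPM in shAnxa2 cells. In shAnxa2 cells its fall was larger than that of the whole sum, so the sum does not show a fall across the class.

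In shAnxa2 cells 10 members rose with OGD/R and 11 fell at the same threshold, where 55% of all genes tested were called, 28.2% higher and 26.8% lower. The median log2 fold change of the members was −0.01, against 0.00 over all genes. Only Farsa (0.25, SE 0.0471) was higher among the 19 cytosolic members, and Cars (−0.43, SE 0.0473), Sars (−0.25, SE 0.0473), Dars (−0.22, SE 0.0505) and Nars (−0.13, SE 0.0445) were lower. In the mitochondrial class 6 of 17 rose and 4 fell, or 5 and 4 of 16 without Lars2. Mars2 (0.67), Yars2 (0.59) and Cars2 (0.47) now rose, with Aars2 (alanine; 0.24) and Sars2 (serine; 0.22), whereas Iars2 (−0.50), Nars2 (−0.37) and Vars2 (−0.27) fell. The median size of the log2 fold change was 0.08 over cytosolic and 0.24 over mitochondrial members (0.23 without Lars2), against 0.24 over all genes tested. The call of Nars was lost without shAnxa2-CTRL 2 (−0.12, adjusted p = 0.062, edgeR), and that of Sars2 without shAnxa2-CTRL 2 (0.18, adjusted p = 0.102), shAnxa2-OGDR 2 (0.18, adjusted p = 0.111) or shAnxa2-OGDR 3 (0.20, adjusted p = 0.0707).

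Where a member was called in both lines, which share no library, the signs of its changes were opposite. This held for 17 of the 44 members, and 0 were called with the same sign, while 44.4% of all genes tested were called with opposite signs and 0.645% with the same sign. The pattern is thus one of the whole series, and the members show it in a smaller share. The direction within each line, and with it the interaction below, rests on the treatment named in the titles, which was not checked by another measure. Anxa2 itself had a log2 fold change with OGD/R of 0.70 in shCtrl and −1.04 in shAnxa2 cells. Whether the titles of 1 line exchange the treatments was not tested. The 11 members higher in shCtrl and lower in shAnxa2 cells included Cars, Dars, Nars and Sars of the cytosolic class, Iars2, Nars2 and Vars2 of the mitochondrial class, and Gars, Gatb and Pstk. The 6 with the reverse pattern were Farsa, Cars2, Mars2, Yars2, Mtfmt and Qrsl1. A further 10 members were called in shCtrl cells alone and 4 in shAnxa2 cells alone, and 13 in neither. The share of all genes tested in each of these classes, or in either order of opposite calls, was not counted. Of all genes tested 63.4% were called in shCtrl and 55% in shAnxa2 cells, and these counts are not read as particular to the members.

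**Figure D2:**
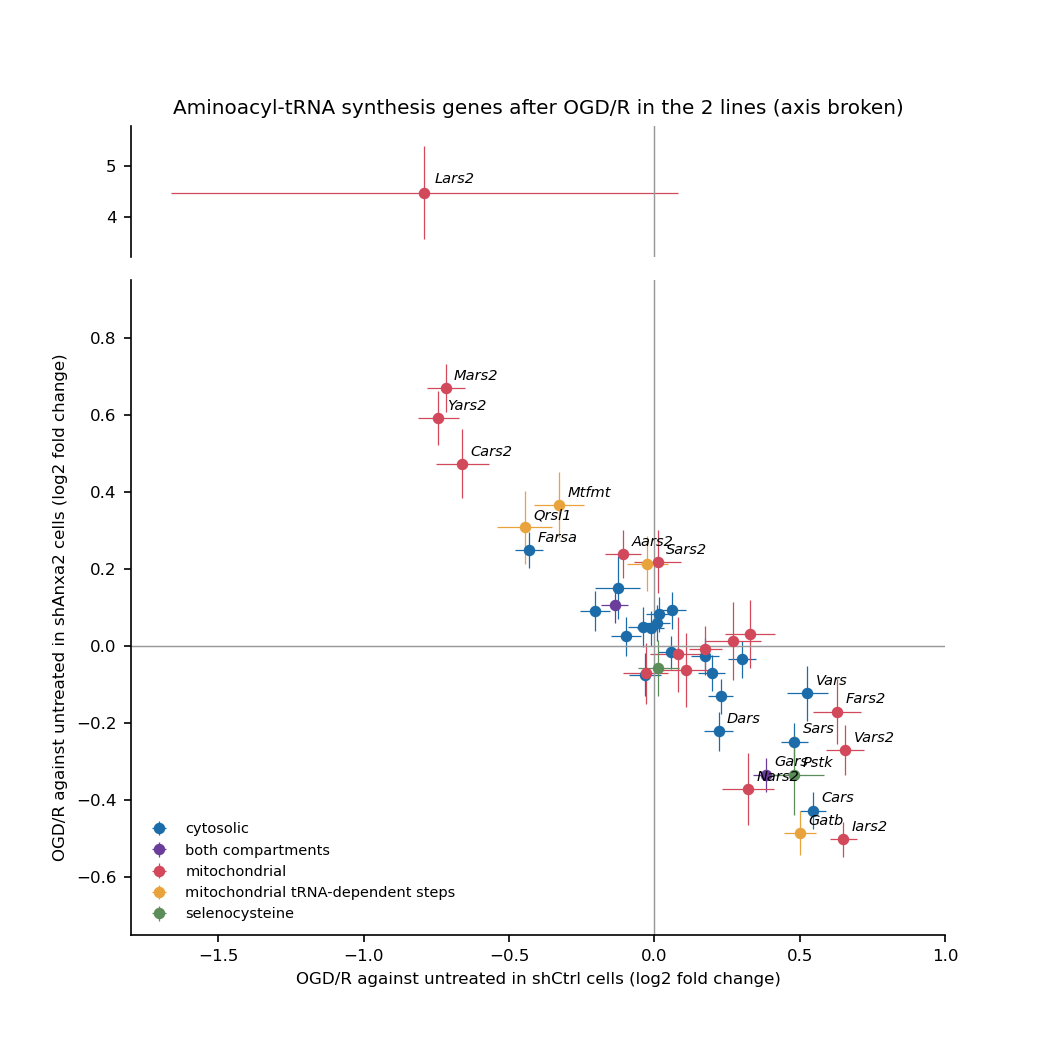
Log2 fold change after OGD/R in shCtrl cells (horizontal axis) and in shAnxa2 cells (vertical axis, broken) for 43 of the 44 members, coloured by class, with bars of 1 standard error. Members with larger changes lie in the upper left or the lower right quadrant, Mars2 and Yars2 at one end and Iars2, Cars and Gatb at the other. Lars2 stands at 4.47 on the vertical axis.

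The third comparison set the untreated lines against each other. There, 13 members had higher and 6 had lower levels in the knockdown line, and 59.2% of all genes tested were called, 29.5% higher and 29.7% lower. Pstk, which phosphorylates the serine on selenocysteine tRNA, was highest by fold (0.58, SE 0.104), followed by Iars2 (0.53), Vars2 (0.51) and, among others, Fars2 (0.39). Tarsl2 (−0.31), Yars2 (−0.30), Rars (−0.25), Mars2 (−0.23), Eprs (−0.14) and Qars (−0.11) were the lower members. The call of Qars was lost without any 1 of 9 libraries (adjusted p from 0.056 to 0.161, edgeR), all but shCtrl-CTRL 2, shAnxa2-OGDR 1 and shAnxa2-OGDR 3, and with RLE size factors or another filter, and that of Nars2 (0.22) without any 1 library of shCtrl-CTRL or without shAnxa2-CTRL 1 or 2 (adjusted p from 0.062 to 0.105). Eprs carries the glutamate and the proline enzyme in 1 chain, and Qars is the glutamine enzyme. The median log2 fold change was 0.00 over the cytosolic class, with 4 higher and 4 lower, and 0.04 over the mitochondrial class (0.07 without Lars2), with 6 higher and 2 lower.

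With OGD/R in both lines, 12 members stood higher and 17 lower in the knockdown line, and 67.9% of all genes tested were called, 33.8% higher and 34.2% lower. Here the cytosolic class counted 2 higher and 9 lower members (median −0.09), and the mitochondrial class 6 higher and 5 lower (median −0.08, and 5 higher and 5 lower without Lars2). Cars had the lowest value (−0.95, SE 0.0467), and Iars2 (−0.62) and Gatb (−0.61) came next. Mars2 (1.16, SE 0.0649), Yars2 (1.03, SE 0.0706) and Cars2 (0.94, SE 0.0924) were the highest apart from Lars2. Single libraries decided the calls of Mars1 (−0.14), lost without shCtrl-OGDR 1 (−0.10, adjusted p = 0.0787, edgeR), and of Lars2, given with that gene. The calls of Pstk (−0.24), Tars2 (0.13) and Yars (−0.11) were lost without any 1 of 7, 6 and 6 libraries, with adjusted p reaching 0.171, 0.208 and 0.198. For Pstk these were shCtrl-CTRL 1, each library of shCtrl-OGDR, shAnxa2-CTRL 1, and shAnxa2-OGDR 1 and 2. For Tars2 they were shCtrl-CTRL 2 and 3, shCtrl-OGDR 2 and 3, and shAnxa2-OGDR 1 and 3, and for Yars shCtrl-CTRL 1, shCtrl-OGDR 1 and 2, shAnxa2-CTRL 1 and 2, and shAnxa2-OGDR 2. This comparison shares its libraries with the OGD/R comparisons above.

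The interaction, the OGD/R change in shAnxa2 cells minus that in shCtrl cells, was called positive for 12 members and negative for 18, and 70% of all genes tested were called, 34.9% positive and 35.1% negative. The cytosolic class counted 3 positive and 8 negative members of 19, and the mitochondrial class 5 and 7 of 17 (4 and 7 of 16 without Lars2). The median size of the interaction was 0.27 over cytosolic and 0.70 over mitochondrial members (0.52 without Lars2), against 0.52 over all genes tested. Of the 30 calls, 26 held in each of the 12 fits that left out 1 library. The call of Tarsl2 was lost without shCtrl-CTRL 2 or 3, shCtrl-OGDR 3, shAnxa2-CTRL 3 or shAnxa2-OGDR 2 or 3 (adjusted p from 0.0531 to 0.0758, edgeR). That of Wars2 (−0.30) was lost without shCtrl-CTRL 2, shCtrl-OGDR 2, shAnxa2-CTRL 2 or 3 or shAnxa2-OGDR 2 (0.0633 to 0.101). That of Tars2 (−0.18) was lost without shCtrl-CTRL 3, shCtrl-OGDR 1 or 3, shAnxa2-CTRL 3 or shAnxa2-OGDR 1 or 2 (0.0607 to 0.16). That of Gatc was lost without any 1 of 9 libraries (0.0531 to 0.109), and kept without shCtrl-CTRL 1, shCtrl-OGDR 3 or shAnxa2-OGDR 2.

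Groups that did not overlap, with every library of one above every library of the other, were found for 28 of the 44 members after OGD/R in shCtrl cells (68% of all genes tested), for 22 in shAnxa2 cells (58.9%), for 26 between the untreated lines (63.6%) and for 30 between the lines after OGD/R (69.9%). A rule that adds a limit on size, an unadjusted p under 0.05 with a log2 fold change of at least 1, called few members. It took 0 members after OGD/R in shCtrl cells (4.7% of all genes higher, 2.16% lower) and 0 between the untreated lines (3.88% and 1.93%). In shAnxa2 cells it took 1 higher member, Lars2, and 0 lower (0.895% and 2.91%). Between the lines after OGD/R the 3 higher members were Lars2, Mars2 and Yars2, with 0 lower (3.72% and 6.45%). In the interaction the 4 positive members were Lars2, Mars2, Yars2 and Cars2, and the 1 negative member was Iars2 (8.95% and 12.8%).

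Among the cytosolic enzymes, Cars, the cysteinyl-tRNA synthetase (ENSMUSG00000010755, chr7:143110967-143153827, minus strand, mm39), had the most negative interaction. Its level was 97.2, 99.3 and 96.4 CPM in the shCtrl-CTRL libraries, 148, 136 and 144 in shCtrl-OGDR, 99.04, 99.6 and 98.8 in shAnxa2-CTRL and 74.8, 71.6 and 74.8 in shAnxa2-OGDR. The untreated lines thus stood at about the same level, and OGD/R took the shCtrl libraries above it and the shAnxa2 libraries below it without overlap. The interaction was −0.97 (SE 0.0656, adjusted p = 2.71e-12, edgeR's quasi-likelihood test). Sars, the seryl-tRNA synthetase that also charges selenocysteine tRNA with serine, was at 345, 345 and 339 CPM in shCtrl-CTRL, 487, 453 and 496 in shCtrl-OGDR, 429.6, 416 and 435 in shAnxa2-CTRL and 359, 347 and 372 in shAnxa2-OGDR. All shAnxa2-CTRL libraries lay above all shCtrl-CTRL libraries, and the interaction was −0.73 (SE 0.0669, adjusted p = 7.32e-10 from the same edgeR test).

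Vars, the valyl-tRNA synthetase, was at 177, 195 and 168 CPM in shCtrl-CTRL and 282, 269.8 and 226 in shCtrl-OGDR, and at 231, 198 and 219.8 in shAnxa2-CTRL and 202, 185 and 209 in shAnxa2-OGDR. Only the shCtrl groups were separate within a line, and the change in shAnxa2 cells, −0.12, did not pass the test (adjusted p = 0.154, edgeR). Its interaction was −0.65 (SE 0.102). Dars, the aspartyl-tRNA synthetase, was at 201, 184 and 205 CPM in shCtrl-CTRL, 223, 236 and 228 in shCtrl-OGDR, 238, 256 and 257 in shAnxa2-CTRL and 218, 218 and 209 in shAnxa2-OGDR. Its groups were separate within each line, and the untreated shAnxa2 libraries were the highest of all, with an interaction of −0.44 (SE 0.0714).

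Farsa had the largest positive interaction of the cytosolic class, 0.68 (SE 0.0669, adjusted p = 2.45e-09, edgeR's quasi-likelihood test). It was at 160.0, 168 and 164 CPM in shCtrl-CTRL, 118, 125 and 122 in shCtrl-OGDR, 164, 157 and 170.3 in shAnxa2-CTRL and 204, 189.8 and 192 in shAnxa2-OGDR. The untreated lines overlapped, and the shCtrl-OGDR libraries were the lowest and the shAnxa2-OGDR libraries the highest. Its partner in the same enzyme, the beta subunit Farsb, was called in none of the 5 comparisons and had an interaction of 0.09 (SE 0.0732, adjusted p = 0.303, edgeR). The gene body of Farsb overlaps Sgpp2 on the other strand by 2315 bases, but Sgpp2 averaged 0.591 CPM.

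Hars was at 149, 144 and 149 CPM in shCtrl-CTRL, 123, 126 and 134 in shCtrl-OGDR, 141, 142 and 126 in shAnxa2-CTRL and 151, 146 and 139 in shAnxa2-OGDR, with an interaction of 0.29 (SE 0.0736). Its groups were separate in shCtrl cells and overlapped in shAnxa2 cells. Hars and Hars2 are neighbours on opposite strands that overlap by 198 bases, and the kit named for the libraries does not mark strand, so reads in the overlap cannot be assigned. Tarsl2 was at 17.8, 18.8 and 18.8 CPM in shCtrl-CTRL, 17.5, 17.2 and 15.98 in shCtrl-OGDR, 15.3, 15.2 and 14.3 in shAnxa2-CTRL and 16.4, 16.4 and 16.97 in shAnxa2-OGDR, with an interaction of 0.28 (SE 0.112). The untreated shAnxa2 libraries were the lowest, and the gene overlaps Tm2d3 on the same strand by 923 bases.

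**Figure D3:**
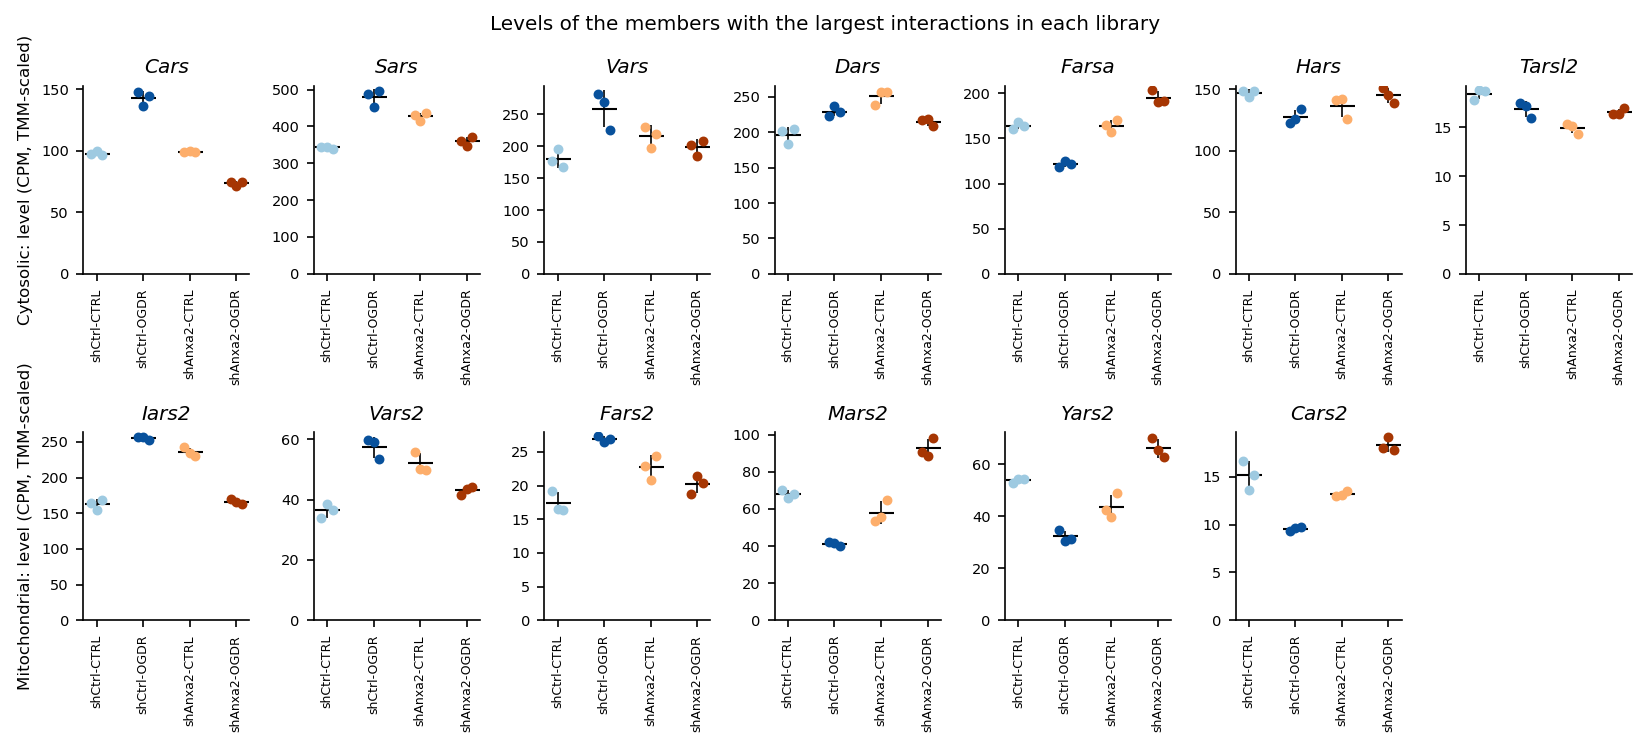
Level (CPM, TMM-scaled, from 0) in each library of the 7 cytosolic (upper row) and 6 mitochondrial (lower row) members among those with the largest interactions, Lars2 left out. Points are libraries, and black marks are the mean ± SD of 3 libraries. Cars and Iars2 rise with OGD/R in shCtrl and fall in shAnxa2 cells, and Farsa, Mars2, Yars2 and Cars2 do the reverse.

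Among the mitochondrial enzymes, Iars2 (isoleucine; ENSMUSG00000026618, chr1:185016923-185061593, minus strand, mm39) had the most negative interaction of all members, −1.15 (SE 0.0651, adjusted p = 1.05e-13, edgeR's quasi-likelihood test). Its level was 164, 155 and 169 CPM in shCtrl-CTRL, 256, 257 and 252 in shCtrl-OGDR, 242, 234 and 230.2 in shAnxa2-CTRL and 169, 166 and 163 in shAnxa2-OGDR. The shCtrl-OGDR libraries were the highest and the shAnxa2-CTRL libraries next, and the ranges of shCtrl-CTRL and shAnxa2-OGDR overlapped. Vars2 (valine) was at 33.95, 38.7 and 36.7 CPM in shCtrl-CTRL, 59.7, 59.1 and 53.4 in shCtrl-OGDR, 55.8, 50.3 and 49.9 in shAnxa2-CTRL and 41.6, 43.4 and 44.2 in shAnxa2-OGDR, with an interaction of −0.93 (SE 0.0924). Within each line the groups were separate, while shCtrl-OGDR and shAnxa2-CTRL overlapped.

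Fars2, a single-chain phenylalanine enzyme, was at 19.3, 16.6 and 16.4 CPM in shCtrl-CTRL, 27.3, 26.4 and 26.9 in shCtrl-OGDR, 22.98, 20.8 and 24.4 in shAnxa2-CTRL and 18.8, 21.4 and 20.4 in shAnxa2-OGDR, and its interaction was −0.80 (SE 0.117). Its groups were separate in shCtrl cells, and it overlapped between those of shAnxa2 cells. In each of Iars2, Vars2 and Fars2 the untreated shAnxa2 libraries already lay above the untreated shCtrl libraries. Iars2 overlaps Rab3gap2 (mean 268 CPM) on the other strand by 2034 bases, and Fars2 overlaps Nrn1 and Lyrm4, so part of their reads cannot be assigned to a strand.

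Mars2 (methionine; ENSMUSG00000046994, chr1:55276336-55287629, plus strand, mm39) had the largest positive interaction after Lars2, 1.39 (SE 0.0909, adjusted p = 1.61e-12, edgeR's quasi-likelihood test). Its level was 70.3, 65.9 and 67.99 CPM in shCtrl-CTRL, 42.3, 41.7 and 39.9 in shCtrl-OGDR, 53.4, 55.9 and 65.0 in shAnxa2-CTRL and 90.9, 88.8 and 98.3 in shAnxa2-OGDR, so that none of the 4 groups overlapped with another. Yars2 (tyrosine; ENSMUSG00000022792, chr16:16120829-16127504, plus strand, mm39) was at 53.0, 54.5 and 54.5 CPM in shCtrl-CTRL, 34.7, 30.6 and 31.4 in shCtrl-OGDR, 42.5, 39.9 and 48.8 in shAnxa2-CTRL and 70.2, 65.4 and 62.8 in shAnxa2-OGDR, with the groups in the same order and an interaction of 1.34 (SE 0.0987). Cars2 (cysteine) was at 16.7, 13.6 and 15.2 CPM in shCtrl-CTRL, 9.35, 9.62 and 9.78 in shCtrl-OGDR, 13.0, 13.1 and 13.5 in shAnxa2-CTRL and 18.01, 19.1 and 17.8 in shAnxa2-OGDR, with an interaction of 1.13 (SE 0.129). Its gene body overlaps Naxd (mean 15.7 CPM) on the other strand by 984 bases, and Cars2 itself averaged 14.1 CPM.

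The promoters of the mitochondrial members with the 2 largest negative and the 2 largest positive interactions among those in the RefSeq promoter table, Lars2 apart (build GRCm38.p6, not the build of the count table) are shown because these genes moved in opposite directions. Each stretch runs 5′ to 3′ on the strand of the gene, from 250 bases before the start to 30 bases after it. Capitals mark matches, on either strand, to the ETS-family motif CCGGAAG, the palindromic motif of NRF1 (nuclear respiratory factor 1), the YY1 motif, the E-box CACGTG or the C/EBP-ATF response element TGATGNAA. They lie on chr1:185329372-185329651 (minus strand), chr17:35667563-35667842 (minus strand), chr1:55236927-55237206 (plus strand) and chr16:16302715-16302994 (plus strand).
Iars2: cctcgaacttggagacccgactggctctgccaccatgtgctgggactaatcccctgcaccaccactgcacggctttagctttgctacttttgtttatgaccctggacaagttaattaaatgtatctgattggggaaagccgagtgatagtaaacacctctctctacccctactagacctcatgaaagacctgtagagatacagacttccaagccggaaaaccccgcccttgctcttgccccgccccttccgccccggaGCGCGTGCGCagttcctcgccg
Vars2: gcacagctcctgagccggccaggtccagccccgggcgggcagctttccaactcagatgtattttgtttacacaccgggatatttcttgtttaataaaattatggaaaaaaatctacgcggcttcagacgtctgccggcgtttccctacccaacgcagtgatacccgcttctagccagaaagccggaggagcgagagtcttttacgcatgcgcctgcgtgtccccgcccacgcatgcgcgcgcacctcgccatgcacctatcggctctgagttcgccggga
Mars2: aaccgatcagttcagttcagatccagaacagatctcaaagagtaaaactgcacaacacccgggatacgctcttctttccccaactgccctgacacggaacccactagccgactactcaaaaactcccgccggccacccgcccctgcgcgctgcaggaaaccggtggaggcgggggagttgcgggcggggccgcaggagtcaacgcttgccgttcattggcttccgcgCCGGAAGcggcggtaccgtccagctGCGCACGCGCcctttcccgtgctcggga
Yars2: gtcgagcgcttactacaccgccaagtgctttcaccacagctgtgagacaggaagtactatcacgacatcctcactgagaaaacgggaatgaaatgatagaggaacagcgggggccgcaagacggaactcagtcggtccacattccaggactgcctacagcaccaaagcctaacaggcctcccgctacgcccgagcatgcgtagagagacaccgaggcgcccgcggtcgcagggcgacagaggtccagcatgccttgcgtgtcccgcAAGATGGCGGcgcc
Mars2 held an ETS and an NRF1 match, Iars2 an NRF1 match, Yars2 a YY1 match and Vars2 a match to none of the 5 motifs in this window. Of the 44 members, 32 had an entry in the table. Among those with none were Cars, Gatb, Hars, Hars2, Lars, Nars, Pars2, Rars, Sepsecs, Vars and Wars. Within the 300 bases of each entry, an ETS match was found in 9 of the 32 members (28.1%, against 9.93% of the 27025 genes in the table) and an NRF1 match in 6 (18.8%, against 5.19%). A YY1 match was found in 2 (6.25%, against 0.995%), Aars2 and Yars2, and matches to different motifs did not overlap in any member. The share of ETS matches was 4 of 14 mitochondrial and 3 of 12 cytosolic members, and these are matches of letters, not sites shown to be bound. The 27025 genes were not limited to those that passed the filter on low counts, as all members did, so the shares compare unlike sets.

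The enzymes of both compartments and the later steps also had interactions of both signs. Gars was at 333, 337 and 333 CPM in shCtrl-CTRL, 437, 439 and 433 in shCtrl-OGDR, 419, 417 and 399 in shAnxa2-CTRL and 335, 327 and 316 in shAnxa2-OGDR. Each shCtrl-OGDR library lay above every untreated library of either line, and the interaction was −0.72 (SE 0.0626, adjusted p = 2.87e-10, edgeR's quasi-likelihood test). Kars (lysine), the other enzyme of both compartments, had smaller differences of the other sign, from 282 ± 8.2 to 257 ± 1.54 CPM in shCtrl and from 291 ± 10.7 to 313 ± 7.99 CPM in shAnxa2 cells (mean ± SD, n = 3), with an interaction of 0.24 (SE 0.0653). Its call in shCtrl cells was lost without shCtrl-CTRL 2 (log2 fold change −0.10, adjusted p = 0.0869, edgeR).

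Inside mitochondria, glutaminyl-tRNA is made by charging the tRNA with glutamate and then amidating it, through an amidotransferase of 3 subunits encoded by Qrsl1, Gatb and Gatc. The subunits did not move together. Gatb had an interaction of −0.99 (SE 0.0783), with 46.1, 46.7 and 48.6 CPM in shCtrl-CTRL, 69.02, 63.8 and 67.3 in shCtrl-OGDR, 60.1, 61.7 and 61.9 in shAnxa2-CTRL and 43.4, 41.95 and 45.9 in shAnxa2-OGDR. Qrsl1 had an interaction of 0.75 (SE 0.134) and Gatc of 0.24 (SE 0.1). Mtfmt, which formylates the initiator methionyl-tRNA of mitochondria, had an interaction of 0.69 (SE 0.122), the same sign as Mars2, which supplies its substrate. In the selenocysteine steps, Pstk had an interaction of −0.82 (SE 0.147) and Sepsecs, which completes the conversion, of −0.07 (SE 0.102, adjusted p = 0.55, edgeR). In shAnxa2 cells, the fall of Pstk after OGD/R (−0.34) was lost without shAnxa2-CTRL 3 (−0.25, adjusted p = 0.0704, edgeR). Without shAnxa2-OGDR 3 the rises of Qrsl1 (0.31) and Gatc (0.21) were lost (0.23, adjusted p = 0.062, and 0.19, adjusted p = 0.0507).

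Within pairs of enzymes for the same amino acid, both members were called in the interaction in 7 of 17 pairs, with opposite signs in 5 and the same sign in 2. Only the cytosolic enzyme was called in 2 pairs, only the mitochondrial enzyme in 5, and neither in 3. Of all genes tested 70% were called in the interaction, 34.9% positive and 35.1% negative, and pairs of unrelated genes were not counted. Pairs that share Eprs or Fars2 are not separate observations. Among the opposite pairs was leucine, whose value for Lars2 rests on 1 library. Cysteine had the next widest split, with −0.97 for Cars and 1.13 for Cars2. The ratio of Cars to Cars2 per kilobase was 7.14 ± 0.81 in shCtrl-CTRL, 16.4 ± 0.914 in shCtrl-OGDR, 8.25 ± 0.183 in shAnxa2-CTRL and 4.43 ± 0.276 in shAnxa2-OGDR (SD, n = 3). Methionine and tyrosine also split, and the ratio of Mars1 to Mars2 went from 9.53 ± 0.441 to 19.3 ± 0.572 with OGD/R in shCtrl cells and from 12.9 ± 1.08 to 7.85 ± 0.282 in shAnxa2 cells. The ratio of Yars to Yars2 went from 2.27 ± 0.0962 to 4.297 ± 0.114 in shCtrl cells and from 3.01 ± 0.319 to 1.95 ± 0.11 in shAnxa2 cells. Valine and asparagine moved as pairs, since Vars and Vars2, and Nars and Nars2, all had negative interactions. Isoleucine changed on the mitochondrial side alone by this test, with 0.06 (SE 0.0652, adjusted p = 0.433, edgeR) for Iars and −1.15 for Iars2.

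Lars2, the mitochondrial leucyl-tRNA synthetase (ENSMUSG00000035202, chr9:123195992-123291731, plus strand, mm39), had the largest interaction of all members, and 1 library carried most of it. It had 2670, 1791 and 984 counts in shCtrl-CTRL, 1648, 967 and 389 in shCtrl-OGDR, 756, 1532 and 1215 in shAnxa2-CTRL and 66525, 1500 and 1414 in shAnxa2-OGDR. The first shAnxa2-OGDR library held 0.334% of its counts in this gene and stood 30.4 times above the next highest library by CPM, while the remaining 11 libraries overlapped across the 4 groups. No other gene with at least 1000 counts in some library had its highest library at least 5 times above the next, in that library (0 genes). At the looser limits of 200 counts and 3 times, Lars2 was again the 1 gene found.

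The interaction of Lars2 was 5.26 (SE 1.25, adjusted p = 0.000631, edgeR's quasi-likelihood test) with all libraries and 1.06 (SE 0.447, adjusted p = 0.0386) without that library. Its change after OGD/R in shAnxa2 cells was 4.47 (SE 0.924) with the library and 0.27 (SE 0.332, adjusted p = 0.514, edgeR) without it, and the difference between the lines after OGD/R was 4.84 and 0.64 (adjusted p = 0.0951, edgeR). Without that library the change in shCtrl cells, −0.79, passed the test (SE 0.3, adjusted p = 0.025, edgeR), and with it the same value did not (adjusted p = 0.441). DESeq2 returned no p-value for this gene. The spread was wide in the remaining groups too, with a coefficient of variation over 3 libraries of 53.4% in shCtrl-CTRL, 55.6% in shCtrl-OGDR and 35.5% in shAnxa2-CTRL. The highest value of any other member in those groups was 16.6%. Its cytosolic partner Lars, the leucine enzyme, had an interaction of −0.27 (SE 0.066) with no such library.

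**Figure D4:**
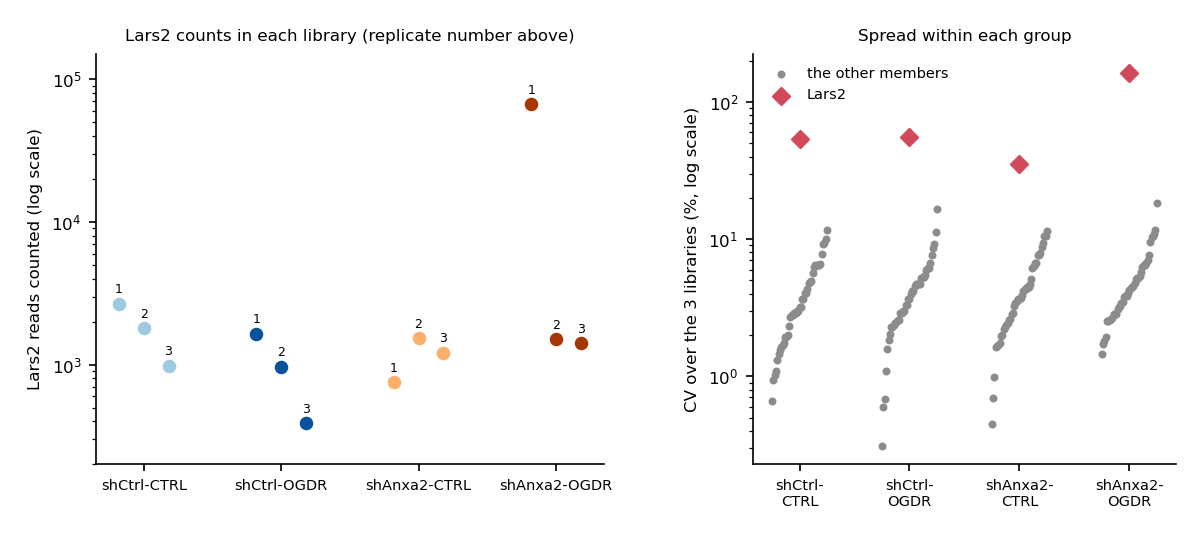
Left, reads counted on Lars2 in each library (log scale), with the replicate number above each point. Right, the coefficient of variation over the 3 libraries of each group (percent, log scale) for Lars2 (red) and the other 43 members (grey). One library stands at 66525 counts against 2670 or fewer in the rest, and Lars2 varies more than any other member in each of the 4 groups.

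Mitochondrially encoded subunits, which are made with the tRNAs that the mitochondrial enzymes charge, were listed beside Lars2 together with the kinase gene Cdk8. Of the 10 genes tested 9 had a positive and 0 a negative interaction (median 1.06), against 34.9% positive and 35.1% negative of all genes tested. mt-Cytb, a subunit of complex III (1.96), and mt-Co2, a subunit of complex IV (1.78, from 16 to 78 counts per library), had the largest. The group means of mt-Co2 were only 1.18 to 2.75 CPM, against 483 to 1114 CPM for mt-Cytb. Why their levels differ so much was not tested. Within the mitochondrial translation factors 2 of 9 were positive and 4 negative (median −0.18), led by Mtif2, an initiation factor (−0.60), and Mtrf1, a release factor (−0.60).

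The members that were called in none of the 5 comparisons numbered 9. They were the cytosolic Aars, Farsb, Iars, Tars and Wars, the mitochondrial Hars2, Pars2 and Rars2, and Sepsecs. Aars, the alanyl-tRNA synthetase and one of the most abundant members, was at 633, 609.8 and 628 CPM in shCtrl-CTRL, 695, 621 and 632 in shCtrl-OGDR, 655, 632 and 669 in shAnxa2-CTRL and 704, 665 and 715 in shAnxa2-OGDR. Its interaction was 0.03 (SE 0.0687). The groups overlapped in each of the 4 comparisons. The interactions of Iars, Tars and Wars were 0.06 (SE 0.0652), 0.12 (SE 0.0719) and 0.05 (SE 0.0654). A value that misses the threshold does not show that the groups were equal. How many of all genes tested were called in none of the 5 comparisons was not counted, while the single comparisons called 55% to 70% of them.

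Genes of the GCN2-ATF4 axis had 1 direction within each line. Of 14 tested, 13 rose and 0 fell with OGD/R in shCtrl cells (median 0.74, where 32.4% of all genes tested were higher), whereas in shAnxa2 cells 0 rose and 12 fell (median −0.55, where 26.8% of all genes were lower). Opposite calls in the 2 lines were made for 44.4% of all genes. In the interaction 0 were positive and 12 negative (median −1.25, where 35.1% of all genes tested were negative). Atf4 itself had log2 fold changes of 0.73 in shCtrl and −0.64 in shAnxa2 cells. Ddit4, an inhibitor of mTORC1 signalling, had the largest interaction (−3.06, SE 0.107). Chac1, a glutathione-degrading enzyme, came next (−2.92, SE 0.439, from 7 to 75 counts per library). Eif2ak4, which encodes GCN2, had an interaction of 0.10 (adjusted p = 0.205, edgeR). Mars1 overlaps Ddit3, a gene of this list on the other strand, by 68 bases, and Ddit3 averaged 7.09 CPM against 221 for Mars1.

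The C/EBP-ATF response element, through which ATF4 acts on several of its targets, was looked for in the promoter entries as TGATGNAA on both strands. It was found in 5 of the 32 members with an entry (15.6%, against 4.51% of the 27025 genes), namely Aars, Gars, Iars, Tars and Yars, which is 4 of 12 cytosolic and 0 of 14 mitochondrial members. It was also found in 4 of the 14 genes of the GCN2-ATF4 list, namely Asns, Chac1, Nupr1 and Trib3. The stretches of 24 bases around each match in the members, on the strand of the gene and in GRCm38.p6, are shown with the matching letters in capitals, because these genes hold the same letters and did not move alike. They lie at chr8:111033722-111033745 and chr8:111033843-111033866 (Aars), chr6:55037963-55037986 (Gars), chr13:49682129-49682152 (Iars), chr15:11399658-11399681 (Tars, minus strand) and chr4:129189898-129189921 (Yars), the others on the plus strand.
Aars, upstream match: cttgagcaTTGCATCAgccgagcc
Aars, downstream match: gggtcactTTTCATCAgagcgctc
Gars: ctgcgctaTTTCATCAtgcaccgg
Iars: tgtcagtaTTGCATCAcctccaga
Tars: gagtcccgTTGCATCAgctggtta
Yars: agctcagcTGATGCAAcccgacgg
Of these 5 genes, Gars had an interaction of −0.72 and Yars of −0.20 (SE 0.068, adjusted p = 0.0108, edgeR's quasi-likelihood test), and Aars, Iars and Tars were not called. The E-box CACGTG was found in 5 members (15.6%, against 8.09%), namely Aars, Ears2, Farsb, Iars and Tars. As above, the 27025 genes were not limited to those that passed the filter on low counts.

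Several cytosolic synthetases are held together in a complex by scaffold proteins. Of the 3 scaffolds of the multi-synthetase complex, Aimp2 (1.05, SE 0.114) and Eef1e1 (0.68, SE 0.0862) had positive interactions, and Aimp1 had one of −0.05 (adjusted p = 0.516, edgeR). Aimp2 and Eef1e1 fell with OGD/R in shCtrl cells (−0.52 and −0.51) and rose in shAnxa2 cells (0.53 and 0.17). Of 4 trans-editing factors, which clear mischarged tRNA, 1 had a positive and 2 a negative interaction. Aarsd1 had the largest (2.72, SE 0.593, from 4 to 41 counts per library) and Dtd1, a D-aminoacyl-tRNA deacylase, the next (−0.71, SE 0.0884). Of all genes tested 34.9% had a positive and 35.1% a negative interaction.

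Upstream of charging, 18 genes of tRNA maturation and export were tested, and 12 had a positive and 2 a negative interaction (median 0.44). With OGD/R 3 rose and 11 fell in shCtrl cells (32.4% and 31% of all genes tested). In shAnxa2 cells 13 rose and 1 fell (28.2% and 26.8%), and opposite calls between the lines were made for 44.4% of all genes. Elac1, a tRNase Z (−1.50), and Tsen15, a subunit of the tRNA splicing endonuclease (1.43), had the largest interactions. Of 9 amino acid transporters tested, 7 had a positive and 1 a negative interaction (median 0.50). The negative one was Slc7a11, the cystine-glutamate exchanger (−2.75, SE 0.147), and the largest positive one was Slc7a5, a large neutral amino acid transporter (1.22, SE 0.0939). Downstream, among 6 cytosolic elongation factors 1 had a positive and 3 a negative interaction (median −0.19), Eef1a1, which delivers charged tRNA to the ribosome, the largest (−0.78) and Eef1d next (0.36). Over all genes tested the median interaction was −0.01, with 34.9% called positive and 35.1% negative.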

How the data were processed

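RNA was measured in 12 BV2 libraries, 3 in each of 4 groups. The authors deposited raw read counts per gene for 21834 protein-coding genes, beside 12 columns of normalized values that were not used here. The submitters' processing notes name HISAT2 2.0.4 and mm39, and the study's methods, written for hippocampi, name another aligner and HTSeq for counting. Counts were tested in 1 model of 4 group means with edgeR 4.0.16 (R 4.3.3, limma 3.58.1), TMM scaling, at least 0.5 CPM in at least 3 libraries, quasi-likelihood tests and Benjamini-Hochberg adjustment over the 11626 genes tested. The fit was checked on simulated data. Standard errors are the log2 fold change over the root of the F statistic. Levels per kilobase used union exon lengths of GENCODE vM21. The libraries are 3 biological replicates a group by the study's methods, and p-values measure the spread between them. Each shRNA is represented by a single stable line, so p-values do not cover the spread between independently made lines. Other differences between the lines cannot be told apart from the knockdown. The alternatives were DESeq2 1.42.0, RLE size factors, other filters, robust dispersion, 2 groups at a time, a replicate block, other limits and leaving out each library, and their effect is given in the closing section. Python 3.11.15, numpy 2.4.6, pandas 2.3.3 and matplotlib 3.10.9 were used.

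The members, their classes, the gene lists and the motifs were chosen with earlier results of these data known. Lars2 and the 4 largest interactions of each sign at an adjusted p under 0.05 in the cytosolic and the mitochondrial class were given in full, and the 2 largest of each other list by name. The values of 1 member, which counts, medians and sums include, are not reported here. The lists were multi-synthetase complex scaffolds, trans-editing, GCN2-ATF4 axis, amino acid transporters, cytosolic elongation, mitochondrial translation factors, tRNA maturation and export, genes beside Lars2 and 4 sets of cell type markers.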

Additional observations from a re-analysis of the deposited data

Results flagged for a closer look

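The OGD/R change differed between the lines, by the interaction term of edgeR's quasi-likelihood test at an adjusted p under 0.05, for 30 of the 44 members, beside 70% of all genes tested. The values of 29 of them are given. All are log2, the change in shAnxa2 cells minus that in shCtrl cells.

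In the cytosolic class the negative values were −0.97 for Cars, −0.73 for Sars, −0.65 for Vars, −0.44 for Dars, −0.36 for Nars, −0.34 for Mars1, −0.27 for Lars and −0.20 for Yars. The positive ones were 0.68 for Farsa, 0.29 for Hars and 0.28 for Tarsl2. In the mitochondrial class the negative values were −1.15 for Iars2, −0.93 for Vars2, −0.80 for Fars2, −0.70 for Nars2, −0.30 for Wars2 and −0.18 for Tars2. The positive ones were 5.26 for Lars2, 1.39 for Mars2, 1.34 for Yars2, 1.13 for Cars2 and 0.35 for Aars2. The enzymes of both compartments had −0.72 (Gars) and 0.24 (Kars). The later steps had −0.99 for Gatb, 0.75 for Qrsl1, 0.69 for Mtfmt, 0.24 for Gatc and −0.82 for Pstk.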

How the results depend on the processing

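No member's log2 fold change that passed the test, here or under an alternative, changed sign, apart from Lars2 between the untreated lines. That value passed with no filter (−0.41), and was positive and not called with the replicate block (0.0095) or without shCtrl-CTRL 1 (0.0526). Under the alternatives other than leaving out a library, the counts of members called stayed within 1.5 times those given, except under the rule with a limit on size, an unadjusted p under 0.05 with a log2 fold change of at least 1. There, 0 rose and 0 fell with OGD/R in the shCtrl line, 1 and 0 in the shAnxa2 line, 0 and 0 between the untreated lines, 3 and 0 between the lines after OGD/R, and 4 positive and 1 negative in the interaction, because a limit on size was added.

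Over the 12 fits that left out 1 library, the median of the cytosolic class ranged from −0.0841 to −0.00096 in the interaction. That of the mitochondrial class ranged from −0.222 to −0.122 in the interaction, from 0.0874 to 0.177 with OGD/R in the shCtrl line, from −0.035 to 0.0459 in the shAnxa2 line and from 0.033 to 0.11 between the untreated lines. The cytosolic median in the shCtrl line ranged from 0.023 to 0.0718, and it crossed 0 in the shAnxa2 line (−0.0282 to 0.00199, positive without shAnxa2-OGDR 3) and between the untreated lines (−0.0246 to 0.018, negative without shCtrl-CTRL 1 or shAnxa2-CTRL 3). The sign of the mitochondrial median in shAnxa2 cells turned without shAnxa2-CTRL 3 (0.0459) or shAnxa2-OGDR 2 (0.0199). Leaving Lars2 out of the class, chosen after seeing the data, kept the sign of its median in all 5 comparisons.

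Calls close to the threshold were lost under other processing. Qars between the untreated lines was lost with RLE size factors (adjusted p = 0.057), with a filter of 1 CPM (0.0628), with no filter (0.144) and with 2 groups at a time (0.0632). Between the lines after OGD/R, Yars was lost with RLE size factors (0.0514) and 2 groups at a time (0.0616), Pstk with DESeq2 (0.0555), and Tars2 with DESeq2 (0.0552), a filter of 1 CPM (0.0633) and no filter (0.0694). In the interaction Tars2 was lost with DESeq2 (0.0596) and Gatc (0.117) and Tarsl2 (0.112) with no filter, as were Gatc (0.0611) and Sars2 (0.0947) in shAnxa2 cells. Ears2, Kars, Lars2, Nars and Vars gained a call under some alternatives. With no filter Lars2 was called in shCtrl cells (−0.79, adjusted p = 3.85e-42, edgeR) and between the untreated lines (−0.41, adjusted p = 3.85e-12, edgeR). With 2 groups at a time Lars2 was called in shCtrl cells (−0.79, adjusted p = 0.0305, edgeR). The causes were not tested.

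For Lars2, robust estimation of the dispersion gave an adjusted p of 0.0539 for the interaction, and with no filter on low counts its standard error was 0.0816 in place of 1.25; the cause was not tested. Replicate numbers did not pair the libraries, since same-numbered libraries had correlated deviations from −0.0513 to 0.135 over 18 pairs. With the replicate number as a block, Lars2 had an interaction of 3.73, Ears2 gained 2 calls (−0.22 between the lines after OGD/R and −0.27 in the interaction), and no call was lost. All members had 0.5 CPM or more in at least 3 libraries.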
